A study of Homo sapiens with 6 samples.

Results

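The 10 genes described are components of the circadian clock: the REV-ERB receptors NR1D1 and NR1D2, the period genes PER1, PER2 and PER3, the cryptochromes CRY1 and CRY2, the activator CLOCK, and the output factors DBP and TEF. They were taken by name from the 38648 genes and gene copies in each table, where each of the 10 had a single entry. The set was chosen by the NR1D1 counts, which were lower with PRDM16 overexpression in these same libraries, so every difference between the groups in these 10 genes is a description and supports nothing further. The data were bulk RNA-seq libraries of HK-2, a human cell line derived from the epithelium of the proximal tubule of the kidney. Lines with a control lentivirus (IR+NC-LV, n = 3, the control libraries) or with a lentivirus that overexpresses PRDM16 (IR+PR-LV, n = 3, the PRDM16 libraries) received 8 Gy of X-rays once and were harvested on day 7. Irradiation, lentivirus and puromycin selection were therefore common to both groups, and the control cells are neither unirradiated nor uninfected. The labels number the libraries 1 to 3 in each group without saying whether they came from separate cultures, so the spread between them may be technical. Neither the time of day at harvest nor any synchronization of the cultures is given in the sources used here.

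In the mammalian clock, CLOCK pairs with ARNTL (also called BMAL1) on E-box sequences and switches on the PER, CRY and NR1D genes. PER and CRY proteins return to the nucleus and shut this pair down, while NR1D1 and NR1D2 are nuclear receptors that repress ARNTL through a corepressor complex, against the activating ROR receptors. DBP and TEF pass the rhythm on to genes with D-box sequences, and in the kidney the clock is known for the daily rhythm of tubular transport.

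Libraries held between 13407074 and 28540041 counts, and control replicate 3 was the shallowest. A count of 0 allows up to 0.105 to 0.224 CPM (counts scaled to the size of the library), a limit that covers counting error only. Of 15340 genes tested with edgeR, 10 had an adjusted p-value under 0.05 (0.0652%), of which 7 were lower in the PRDM16 libraries (0.0456%), and with 1 library left out the number of genes past this threshold lay between 1 (without control replicate 1 or without PRDM16 replicate 3) and 28 (without control replicate 2). PRDM16, the overexpressed gene, had 2, 0 and 1 counts in the control libraries and 14, 10 and 8 counts in the PRDM16 libraries. It was too low to test, with a mean of 0.542 CPM in the PRDM16 libraries. All 7 epithelial markers and 6 of 9 proximal tubule markers reached 10 counts in a library, but LRP2 and SLC22A6, a receptor and a transporter that define the proximal tubule, had at most 1 count in any library. The summed proximal tubule markers lay between 135 and 141 CPM in the control libraries and between 112 and 127 CPM in the PRDM16 libraries, and the 2 leukocyte markers, of which CD68 held nearly all counts, summed to between 91.8 and 106 CPM and between 81.0 and 88.8 CPM. The 2 endothelial markers summed to at most 1.32 CPM, the 4 markers of other tubule segments to at most 0.321 CPM and the 4 fibroblast markers to between 18.7 and 27.4 CPM. The part of any of them in the values of the clock genes was not tested.

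Promoters of NR1D1, NR1D2, PER1 and PER2 are shown first, as those of the 2 REV-ERB genes and of 2 of the 3 period genes, because the E-box and the D-box are the sequences through which the loop acts on its own genes. Each window runs from 250 bases before to 50 bases after a transcription start annotated by RefSeq on GRCh38.p14, and is written 5′ to 3′ on the strand of the gene. Capitals mark the matches, on either strand, to the E-box (CACGTG), to the related E′-box (CACGTT), to the D-box (TTANNTAA) and to the RORE core shared by REV-ERB and ROR receptors (TNGGTCA). The windows are NR1D1 at chr17:40100540-40100839 (minus strand), the second listed start of NR1D2 at chr3:23945871-23946170 (plus strand), PER1 at chr17:8152355-8152654 (minus strand) and PER2 at chr2:238288561-238288860 (minus strand).
NR1D1: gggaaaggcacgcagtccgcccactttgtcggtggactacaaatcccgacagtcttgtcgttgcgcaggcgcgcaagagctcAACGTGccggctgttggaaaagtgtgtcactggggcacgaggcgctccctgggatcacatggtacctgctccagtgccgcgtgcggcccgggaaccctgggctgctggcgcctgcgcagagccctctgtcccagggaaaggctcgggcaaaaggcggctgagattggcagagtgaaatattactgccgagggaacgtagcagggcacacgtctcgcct
NR1D2: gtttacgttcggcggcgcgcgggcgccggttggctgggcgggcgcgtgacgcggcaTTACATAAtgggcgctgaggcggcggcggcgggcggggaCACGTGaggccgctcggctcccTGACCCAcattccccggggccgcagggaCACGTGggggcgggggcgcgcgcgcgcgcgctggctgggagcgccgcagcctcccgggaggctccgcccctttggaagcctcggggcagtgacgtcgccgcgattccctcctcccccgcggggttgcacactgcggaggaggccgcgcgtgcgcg
PER1: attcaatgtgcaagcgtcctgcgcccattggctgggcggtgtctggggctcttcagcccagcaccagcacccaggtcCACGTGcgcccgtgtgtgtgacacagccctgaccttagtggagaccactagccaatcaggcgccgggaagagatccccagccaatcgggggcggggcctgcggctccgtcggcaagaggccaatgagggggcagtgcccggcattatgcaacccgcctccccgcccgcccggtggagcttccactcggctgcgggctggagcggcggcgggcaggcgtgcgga
PER2: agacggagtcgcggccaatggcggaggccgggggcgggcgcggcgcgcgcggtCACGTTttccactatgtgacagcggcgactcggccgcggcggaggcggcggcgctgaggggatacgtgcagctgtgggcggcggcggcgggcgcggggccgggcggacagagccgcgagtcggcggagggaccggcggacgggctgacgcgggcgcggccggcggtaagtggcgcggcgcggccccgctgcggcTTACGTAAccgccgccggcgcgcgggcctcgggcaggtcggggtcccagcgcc

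All 10 genes had an entry in the promoter table, with 15 windows between them. NR1D2 held 2 E-boxes, whose first bases lie 155 and 105 bases before the start, together with a D-box and a RORE core, the most matches of any window of the 10 genes, and its other window held no match. PER1 held 1 E-box, 173 bases before its start. NR1D1 held an E′-box 168 bases before its start, and PER2 an E′-box 197 bases before its start and a D-box that spans it. Over the 10 genes, the E-box was found in 3 (NR1D2, PER1 and TEF), the E′-box in 5 (NR1D1, PER2, CRY1, CRY2 and CLOCK), the D-box in 4 (NR1D2, PER2, PER3 and TEF) and the RORE core in 3 (NR1D2, CRY2 and CLOCK). Among all genes of the table, 8.78% held the E-box, 6.44% the E′-box, 6.92% the D-box and 11.4% the RORE core. The cyclic AMP response element (TGACGTCA) was in 2.25% of all genes and in 0 of the 10, and DBP held none of the 5 motifs in its window. The median GC content was 70.3% over the 15 windows and 58.7% over all 35116 windows of the table. A match describes the letters in these windows and does not show that a factor binds there.

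To see which clock genes the irradiated cells expressed most, levels were compared per gene length as TPM (counts scaled by gene length and library). NR1D2 and CRY1 had the highest TPM of the 10 genes in both groups, with 101 ± 20.1 and 88.9 ± 2.17 TPM in the control libraries and with 74.3 ± 5.33 and 83.6 ± 4.97 TPM in the PRDM16 libraries (SD, n = 3). NR1D1 followed them in the control libraries at 47.9 ± 12.7 TPM, and in the PRDM16 libraries it was at 17.7 ± 1.31 TPM, where CLOCK stood above it at 27.0 ± 1.93 TPM. PER2 was the lowest in both groups, with 3.90 ± 1.48 and 2.62 ± 0.445 TPM. Averaged over the 6 libraries, NR1D2 lay above 84.7% and CRY1 above 84.6% of the genes tested, NR1D1 above 65.8%, CLOCK above 61.5% and PER2 above 22.7%. In the control libraries the ranges of neighbours in this order were separate between CRY1 and NR1D1, between NR1D1 and CLOCK and between CLOCK and PER3, and the other 6 pairs of neighbours overlapped. In the PRDM16 libraries they were separate between NR1D2 and CLOCK, CLOCK and NR1D1, NR1D1 and PER3, PER3 and TEF, and CRY2 and DBP, and overlapped in the other 4 pairs.

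**Figure D1:**
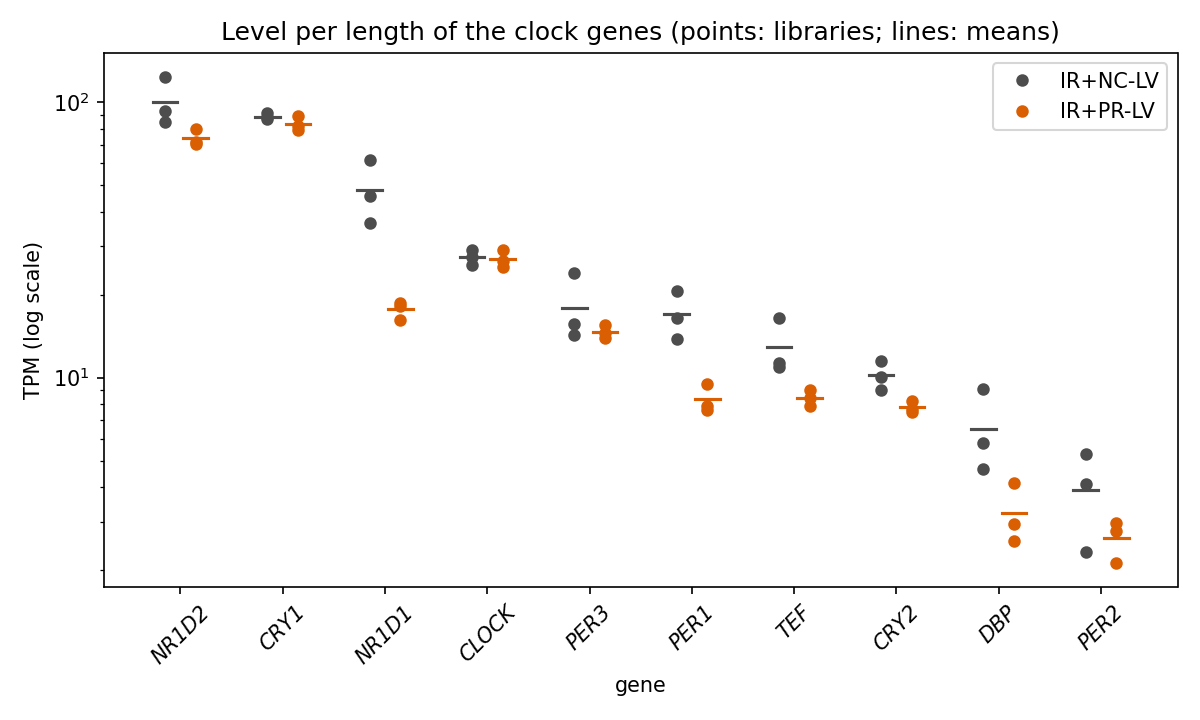
TPM (log axis) of the 10 clock genes in each library, ordered by their mean in IR+NC-LV, with points for libraries and lines for group means. NR1D2 and CRY1 are the highest in both groups, and NR1D1 moves from above CLOCK (47.9 against 27.4 TPM) to below it (17.7 against 27.0 TPM).

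NR1D1 and NR1D2 encode the REV-ERB receptors, the repressors that hold ARNTL down. NR1D1 (gene on chromosome 17, 40092793 to 40100589, minus strand) had a TMM-normalized level of 36.8, 30.1 and 46.4 CPM in control replicates 1, 2 and 3 and 15.3, 13.4 and 14.7 CPM in the PRDM16 replicates. Every PRDM16 library lay below every control library, and replicate 3 was the highest of the controls. The mean was 37.8 ± 8.22 CPM in the control libraries and 14.5 ± 0.972 CPM in the PRDM16 libraries (SD, n = 3), which is 38.4% of the control level and a log2 fold change of -1.38 (SE 0.15). It was the 35th lowest log2 fold change of the 15340 genes tested. In bulk RNA, fewer cells with a transcript and less of it per cell cannot be told apart. NR1D1 was the only 1 of the 10 genes past the threshold with edgeR after the filter on low counts, where 0.0652% of all genes tested were. It was not past it without control replicate 1 (log2 fold change -1.40) or without PRDM16 replicate 1 (-1.42), 2 (-1.33) or 3 (-1.40). With DESeq2, NR1D1, NR1D2 and PER1 were past it, among 168 genes in all. Without the filter on low counts, DBP and TEF were past it as well, among 342 genes in all.

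NR1D1 shares 473 of its 2630 exon bases (18.0%) with THRA, a thyroid hormone receptor gene on the opposite strand, and whether the counting used the strand is not given in the sources used here. THRA read 19.0, 20.0 and 17.6 CPM in the control libraries and 21.1, 16.1 and 15.4 CPM in the PRDM16 libraries. Its groups overlapped, with a log2 fold change of -0.11 (SE 0.13, adjusted p = 0.796).

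The paralog NR1D2 read 157, 146 and 194 CPM in the control libraries and 120.0, 124 and 135 CPM in the PRDM16 libraries. Its groups did not overlap either, but they lay closer together, with means of 166 ± 25.0 and 126 ± 7.75 CPM (SD, n = 3) and a log2 fold change of -0.39 (SE 0.10). Within a library, the TPM of NR1D1 was 0.488, 0.428 and 0.499 times that of NR1D2 in the control libraries and 0.265, 0.226 and 0.227 times in the PRDM16 libraries. The balance of the REV-ERB transcripts was thus lower on the NR1D1 side in each PRDM16 library.

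**Figure D2:**
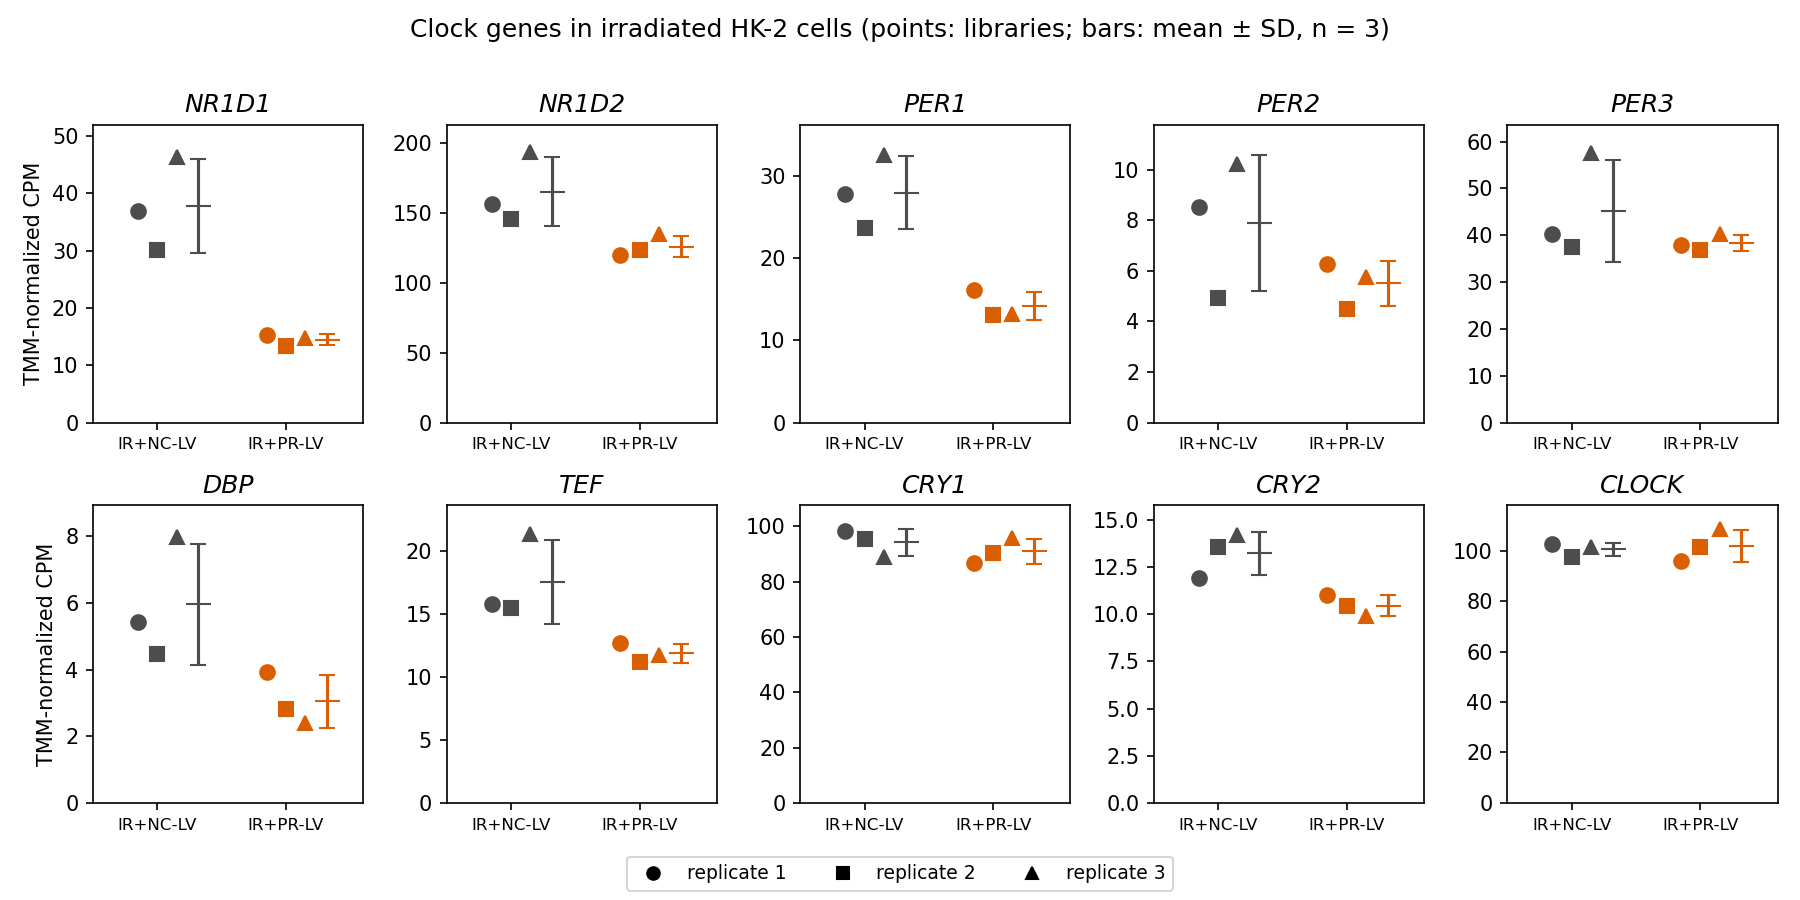
TMM-normalized CPM of the 10 clock genes in each library (points, shaped by replicate number) with the group mean ± SD (n = 3), from 0 on each axis. NR1D1, NR1D2, PER1, DBP, TEF and CRY2 have no overlap between the groups, whereas PER2, PER3, CRY1 and CLOCK do.

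The period genes encode the repressors that accumulate and close the loop. PER1 read 27.7, 23.6 and 32.5 CPM in the control libraries and 16.1, 13.1 and 13.2 CPM in the PRDM16 libraries, with no overlap. Its means were 27.9 ± 4.41 and 14.1 ± 1.73 CPM (SD, n = 3), which is 50.6% of the control level and a log2 fold change of -0.98 (SE 0.13), the second largest difference among the 10 genes. PER1 was past the threshold only without control replicate 2 among the libraries left out (log2 fold change -1.09). PER2 read 8.52, 4.94 and 10.2 CPM in the control libraries and 6.25, 4.51 and 5.76 CPM in the PRDM16 libraries. Control replicate 2 lay inside the range of the PRDM16 libraries, so the groups overlapped, and the log2 fold change of -0.52 had an SE of 0.25. This was also the period gene with the fewest counts, between 104 and 143 in a library.

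PER3 read 40.4, 37.5 and 57.7 CPM in the control libraries and 37.9, 36.9 and 40.2 CPM in the PRDM16 libraries. Only control replicate 3 stood clear of the other 5 libraries, and the log2 fold change was -0.23 (SE 0.15). Without that library it was -0.02 for PER3 and -0.29 for PER2. PER1 and PER3 had nearly the same TPM in the control libraries, with PER1 at 1.06, 0.970 and 0.867 times PER3 in replicates 1, 2 and 3. The same ratio was 0.656, 0.547 and 0.506 in the PRDM16 libraries, all below the controls. The ratio of PER1 to PER2 was also lower in each PRDM16 library, at 3.21 ± 0.379 against 4.63 ± 1.13 (SD, n = 3), whereas the ratio of PER2 to PER3 overlapped between the groups.

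The cryptochromes are the partners of the period proteins in repression, and CLOCK is the activator they repress. CRY1 read 98.3, 95.4 and 88.8 CPM in the control libraries and 86.6, 90.4 and 95.8 CPM in the PRDM16 libraries, and these ranges overlapped (log2 fold change -0.05, SE 0.07). CRY2 was the scarcer cryptochrome, with 11.9, 13.5 and 14.2 CPM in the control libraries and 11.02, 10.4 and 9.89 CPM in the PRDM16 libraries. Its groups did not overlap, although the highest PRDM16 library and the lowest control library lay close together, and its log2 fold change was -0.34 (SE 0.11). The TPM of CRY1 was between 7.68 and 10.1 times that of CRY2 in the control libraries and between 9.64 and 11.9 times in the PRDM16 libraries, which overlap.

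CLOCK read 102, 97.6 and 101 CPM in the control libraries and 95.9, 101 and 109 CPM in the PRDM16 libraries. Its means of 100.5 ± 2.52 and 102 ± 6.38 CPM (SD, n = 3) differed by less than the SD of either group, and its log2 fold change was 0.02 (SE 0.07). This sign turned without control replicate 2 (-0.0016) and without PRDM16 replicate 3 (-0.03). TMEM165 overlaps 8.17% of the exon bases of CLOCK on the opposite strand, and had a log2 fold change of 0.19 (adjusted p = 0.463). Set against CLOCK within a library, the TPM of NR1D1 was 1.66, 1.42 and 2.12 times as high in the control libraries and 0.738, 0.611 and 0.627 times as high in the PRDM16 libraries. NR1D1 was thus above CLOCK in each control library and below it in each library with the PRDM16 virus.

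DBP and TEF encode related transcription factors of the PAR bZIP family that act on D-box genes. DBP read 5.42, 4.46 and 7.99 CPM in the control libraries and 3.93, 2.82 and 2.39 CPM in the PRDM16 libraries, without overlap, and its log2 fold change was -0.96 (SE 0.26). It rested on the fewest counts of the 10 genes, 44 to 111 in a library, and its SE was the largest of the 10. SPHK2 overlaps 12.4% of its exon bases on the opposite strand and had a log2 fold change of 0.16 (adjusted p = 0.768).

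TEF read 15.8, 15.5 and 21.4 CPM in the control libraries and 12.7, 11.2 and 11.7 CPM in the PRDM16 libraries. All PRDM16 libraries were lower than all control libraries, and the log2 fold change was -0.56 (SE 0.14). The ratio of DBP to TEF in TPM was 0.497 ± 0.0642 in the control libraries and 0.379 ± 0.0788 in the PRDM16 libraries (SD, n = 3), and overlapped between the groups.

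Over the 10 genes, 9 log2 fold changes were below 0, as were 48.9% of those of all genes tested. Groups did not overlap for 6 of the 10, all lower in the PRDM16 libraries, and for 0 in the other direction. Among all genes tested, 9.54% were lower and 7.46% were higher without overlap. An unadjusted p-value under 0.05 in edgeR with the lower level in the PRDM16 libraries was found for 6 of the 10 and for 5.97% of all genes, and with the higher level for 0 of the 10 and for 4.55% of all genes. The median log2 fold change was -0.45 for the 10 genes and 0.0044 for all genes tested, and without control replicate 3 the median of the 10 was -0.29. Because this same comparison chose the set, nothing is read from these counts about the genes.

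**Figure D3:**
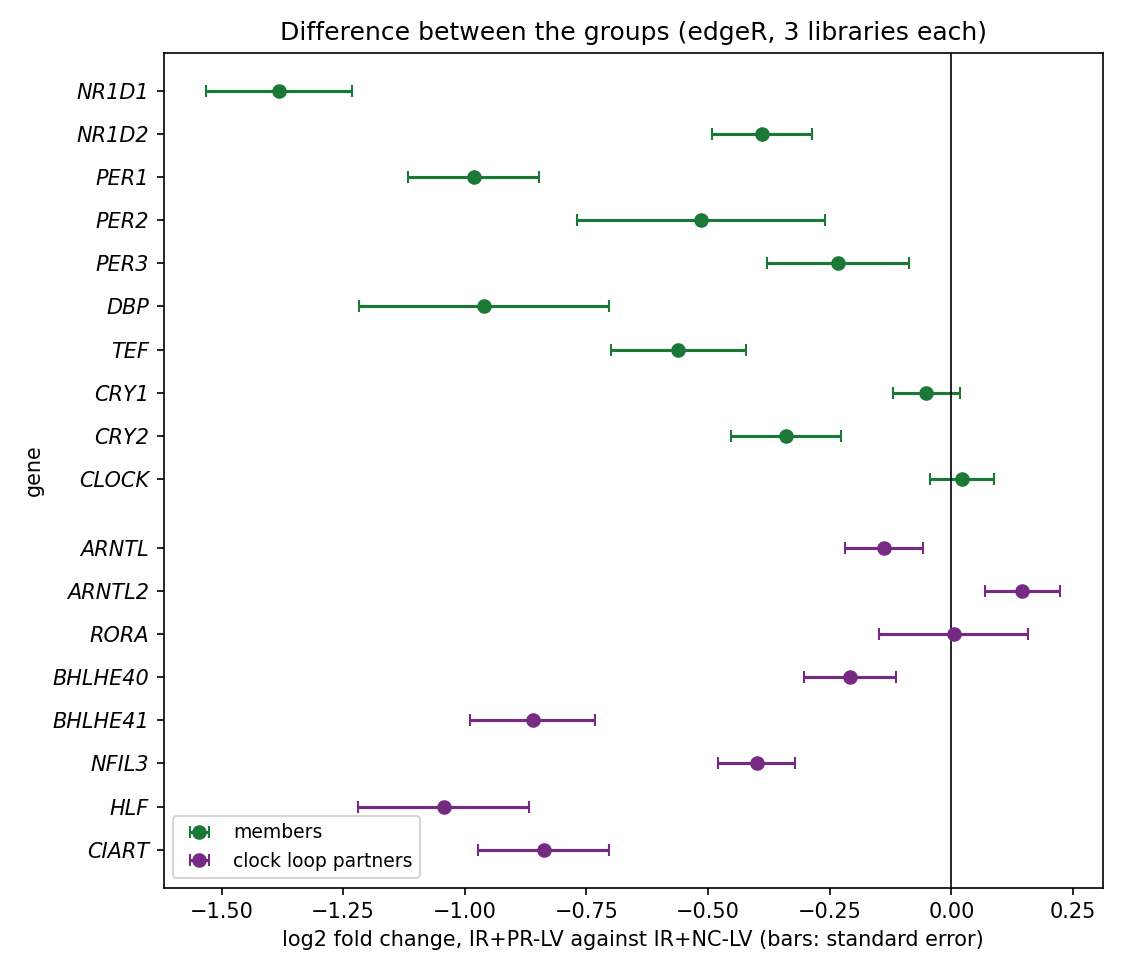
Log2 fold change of IR+PR-LV against IR+NC-LV (edgeR, 3 libraries each, bars: SE) for the 10 clock genes (green) and the 8 tested partners of the loop (purple), with a line at 0. NR1D1 is the lowest at -1.38, followed by HLF at -1.04, and CLOCK, CRY1 and RORA lie within 1 SE of 0.

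How the genes varied inside a group was examined as log2 CPM minus the mean of the own group. Control replicate 3 was the highest library of its group for 8 of the 10 genes, all but CRY1 and CLOCK. Among all genes tested it was the highest for 40.1% and the lowest for 40.5%, so it often lay at an end of its group. Control replicate 2 was the lowest for 8 of the 10, all but CRY1 and CRY2, and for 33.7% of all genes. In control replicate 3 the deviation was 0.32 for NR1D1, 0.24 for NR1D2, 0.23 for PER1, 0.43 for PER2, 0.38 for PER3, 0.46 for DBP and 0.30 for TEF. These 7 genes thus deviated upward together in 1 control library, while CRY2 was at 0.105, CRY1 at -0.08 and CLOCK at 0.01 there. The median deviation of the 10 genes was -0.04, -0.20 and 0.27 in control replicates 1, 2 and 3 and 0.08, -0.07 and 0.05 in the PRDM16 replicates.

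The spread of NR1D1 between libraries, as a coefficient of variation, was 21.8% in the control libraries and 6.71% in the PRDM16 libraries, that of PER3 was 24.1% and 4.41%, and that of TEF was 18.9% and 6.36%. For CLOCK it was 2.51% in the control libraries and 6.26% in the PRDM16 libraries, and for CRY1 it was 5.16% and 5.04%. Control replicate 3 had the smallest total count of the 6 libraries and the highest TMM factor (1.04), and control replicate 2 had the largest total count of its group. The part of depth in these deviations was not tested.

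**Figure D4:**
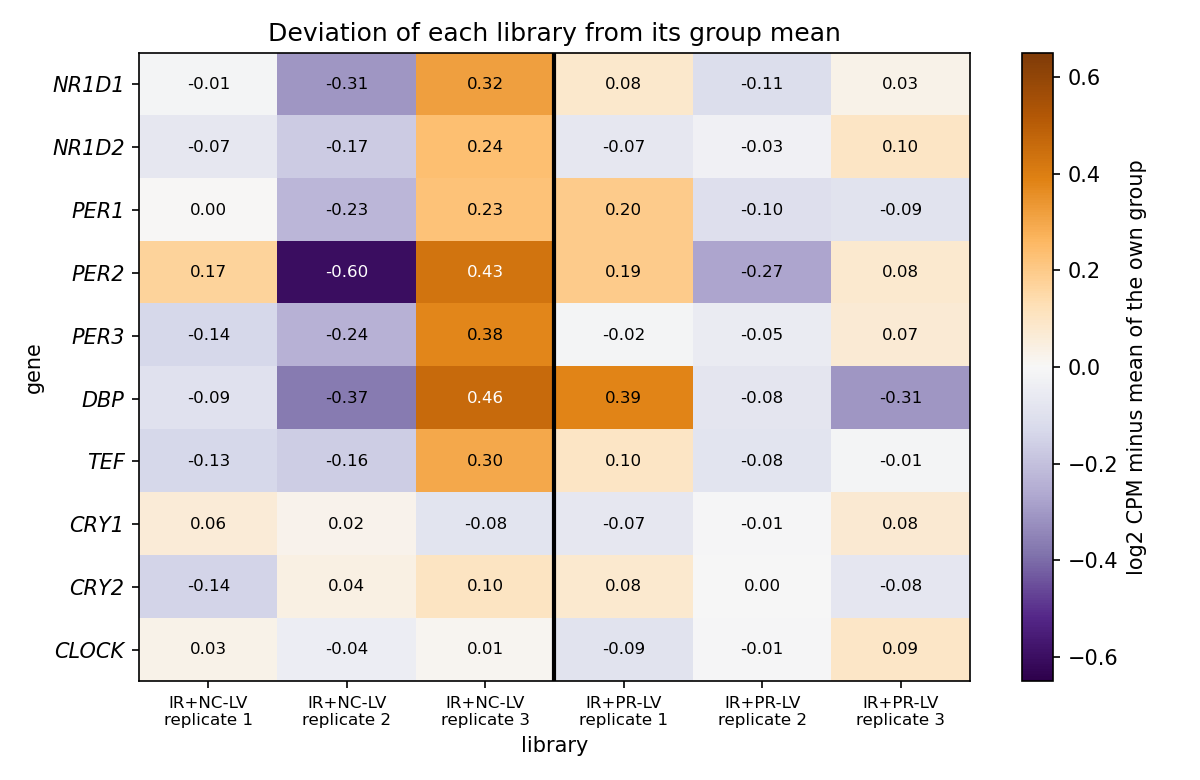
Deviation of log2 CPM from the mean of the own group for the 10 clock genes (vertical) in the 6 libraries (horizontal), with each value printed and colored from purple (lower) to orange (higher). NR1D1, NR1D2, PER1, PER2, PER3, DBP and TEF are between 0.23 and 0.46 in IR+NC-LV replicate 3 and between -0.60 and -0.16 in IR+NC-LV replicate 2, while CRY1 and CLOCK stay within 0.10 of 0. CRY2 is at 0.105 in IR+NC-LV replicate 3 and at 0.038 in IR+NC-LV replicate 2.

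Over the 6 libraries, the deviations of NR1D1 from its group means had a Pearson r of 0.95 with those of PER2, 0.92 with PER3, 0.91 with TEF, 0.90 with PER1, 0.86 with NR1D2 and 0.81 with DBP. With CRY2 it was 0.29, with CLOCK 0.19 and with CRY1 -0.53. Of the other 9 clock genes, 6 had an r of at least 0.8, against 9.51% of the other 15339 genes tested, whose median r was 0.03. That share is 1458 genes, so an r this high was not particular to the clock genes. These values describe 6 libraries in 2 groups, in which NR1D1 deviated most in control replicates 2 and 3, and no p-value is given.

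When the 6 libraries were taken as they are, the genes most like NR1D1 in log2 CPM were LOC105373954, ATF3, SOCS2, NEDD4L and GADD45A, with a Pearson r between 0.996 (GADD45A) and 0.9996 (LOC105373954). The measure takes in the difference between the groups as well as the spread within them, and 189 genes reached an r of at least 0.95. In the deviations from the group means alone, the r with NR1D1 was 0.999 for LOC105373954, 0.985 for ATF3 and 0.983 for SOCS2. For NEDD4L it was 0.967 and for GADD45A 0.939. ATF3, a transcription factor induced by stress, had means of 78.4 CPM in the control libraries and 30.1 CPM in the PRDM16 libraries (log2 fold change -1.38, SE 0.15). GADD45A, a gene induced by DNA damage, had means of 239 and 118 CPM (log2 fold change -1.02, SE 0.11). SOCS2 (an inhibitor of cytokine signaling), NEDD4L (a ubiquitin ligase) and LOC105373954 had log2 fold changes of -0.73, -0.24 and -2.13, and LOC105373954 had means of only 0.952 and 0.211 CPM. PER1 was 12th among all genes in likeness to NR1D1 (r = 0.99), TEF 163rd and NR1D2 369th, whereas CLOCK was 8433rd.

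Next, the other genes of the transcriptional loop were examined. Of 11 listed partners, 8 were tested, of which 6 were lower and 2 were higher in the PRDM16 libraries, and the median log2 fold change was -0.30. With edgeR after the filter on low counts, 0 of the 8 were past the threshold, where 10 of all 15340 genes tested were. With DESeq2, 4 of the 8 were past it, among 168 genes in all. Without the filter on low counts, 4 were past it, among 342 genes in all. The groups did not overlap for 5 of the 8, all lower, against 9.54% of all genes tested, and an unadjusted p-value under 0.05 was found for 4 (HLF, BHLHE41, CIART and NFIL3), also lower, against 5.97% of all genes tested. The partners were listed with earlier results of these data known, so these counts are a description and nothing further is read from them. HLF, the PAR bZIP relative of DBP and TEF, read 9.66, 8.36 and 12.7 CPM in the control libraries and 4.76, 4.61 and 5.49 CPM in the PRDM16 libraries, with a log2 fold change of -1.04 (SE 0.18, adjusted p = 0.0799). BHLHE41 (DEC2), which competes for E-boxes, read 49.1, 41.5 and 59.6 CPM in the control libraries and 25.0, 28.4 and 29.1 CPM in the PRDM16 libraries (log2 fold change -0.86, SE 0.13, adjusted p = 0.0696). Both were separate between the groups, and with 1 library left out, BHLHE41 was past the threshold without control replicate 2 (-0.98, adjusted p = 0.0323). CIART, a repressor of the CLOCK and ARNTL pair, had a log2 fold change of -0.84 (SE 0.13, adjusted p = 0.0755), and NFIL3, which represses D-box genes, of -0.40 (SE 0.08, adjusted p = 0.123).

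ARNTL, the partner of CLOCK and a target of the REV-ERB receptors, had means of 28.9 ± 0.730 CPM in the control libraries and 26.2 ± 1.61 CPM in the PRDM16 libraries (SD, n = 3). It read 29.3, 28.0 and 29.2 CPM in the control libraries and 24.5, 27.7 and 26.2 CPM in the PRDM16 libraries, without overlap. Its log2 fold change of -0.14 (SE 0.08, adjusted p = 0.580) did not pass the threshold, and the TPM of NR1D1 was between 1.91 and 2.83 times that of ARNTL in the control libraries and between 0.860 and 1.11 times in the PRDM16 libraries. ARNTL2, its paralog, had a log2 fold change of 0.15 (SE 0.08, adjusted p = 0.547), and BHLHE40 (DEC1) of -0.21 (SE 0.09, adjusted p = 0.482). RORA, an activator at the sites where the REV-ERB receptors repress, had means of 8.67 and 8.69 CPM and a log2 fold change of 0.0046 (SE 0.15, adjusted p = 0.994), which turned to -0.00704 with upper-quartile normalization. Each of these 3 overlapped between the groups. NPAS2 and RORB, with at most 18 and 4 counts in a library, were too low to test.

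The wider clock machinery was described by 5 further lists, also chosen with earlier results of these data known. In them, 0 genes were past the threshold with edgeR after the filter on low counts. Without that filter (342 genes past the threshold in all), and also with DESeq2 (168 in all), 3 output genes (KLF10, NOCT and PPARGC1A) and NFIL3 were past it. An unadjusted p-value under 0.05 was found for 4 output genes, all lower, and for 1 gene in each of the other 4 lists, against 5.97% lower and 4.55% higher among all genes tested. Of 19 tested kinases, ubiquitin ligases and cofactors that act on clock proteins, 11 were higher and 8 lower, with a median log2 fold change of 0.03, a largest value of 0.15 for TIMELESS (adjusted p = 0.576) and a smallest of -0.26 for SIRT1 (adjusted p = 0.348). The 6 genes of the corepressor complex of the REV-ERB receptors had a median of 0.02 (-0.03 without PRDM16 replicate 1), from TBL1X at 0.21 (adjusted p = 0.377) to GPS2 at -0.40 (adjusted p = 0.815). GPS2 is listed in 2 copies, between which reads may be split, and the copy used spread from 4.02 to 21.5 CPM among the PRDM16 libraries. Of 10 tested genes known to be repressed by the REV-ERB receptors, 5 were higher and 5 lower. Among them were CLOCK and CRY1 and the partners ARNTL and NFIL3, already described above. The median was -0.01 (0.0039 without control replicate 1 and 0.0112 without PRDM16 replicate 1). The range ran from CCL2 at -0.42 (adjusted p = 0.650), with only 13 to 36 counts in a library, to INSIG2 at 0.15 (adjusted p = 0.691).

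Of 13 tested output genes of the clock, 4 were higher and 9 lower, with a median log2 fold change of -0.02. The groups did not overlap for 4 of the lower genes and for 1 of the higher, against 9.54% lower and 7.46% higher among all genes tested. KLF10, a transcription factor with a clock-driven rhythm, read 346, 315 and 495 CPM in the control libraries and 213, 195 and 206 CPM in the PRDM16 libraries, without overlap (log2 fold change -0.91, SE 0.15, adjusted p = 0.0755). NAMPT, the rate-limiting enzyme of NAD salvage, had the largest positive value, 0.11 (adjusted p = 0.684). Named after their values were seen, NOCT (-0.59, adjusted p = 0.0755), PPARGC1A (-0.77, adjusted p = 0.0799) and PIM3 (-0.32, adjusted p = 0.377) were the other 3 output genes with an unadjusted p-value under 0.05. KLF10, NOCT and PPARGC1A were past the threshold without control replicate 2, and KLF10 also without control replicate 3. Glucocorticoids can reset the clock through PER1, and of 8 tested genes responsive to them 4 were higher and 4 lower, with a median of -0.02, from TSC22D3 at -0.32 (adjusted p = 0.237) to SGK1 at 0.06 (adjusted p = 0.802).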

How the data were processed

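Per the labels and the methods of the study, poly(A) RNA was sequenced as paired reads. The authors' processing notes name CASAVA, featureCounts 2.0.1, DESeq2 1.16.1 and hg38. The aligner and the use of strand in counting are not given in the sources used here. The authors deposited, per library, the raw read count of each gene with its TPM and FPKM. The TPM, as deposited, is the count scaled by gene length and library, and served only to compare levels between genes. FPKM was not used.

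Counts were filtered (filterByExpr, minimum count 10, minimum total count 15), normalized by TMM (factors 0.981 to 1.04) and compared with the quasi-likelihood test of edgeR 4.0.16 in R 4.3.3 (no covariates, Benjamini-Hochberg adjustment over 15340 genes, threshold 0.05). Standard errors were derived from the fold change and its F value. Log2 CPM used a prior count of 2. The p-values set each difference only against the spread between these libraries, estimated with information shared over all genes tested. In simulated counts, edgeR recovered 175 of 200 genes with a log2 change of 1 among 15419 tested, and 61 of 200 with a log2 change of 0.5 among 15396. The simulation gave every gene the same biological coefficient of variation (0.106), so it does not show the recovery of genes with a larger spread.

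The 10 genes and all lists were chosen with earlier results of these data known. Named genes were the 10 clock genes, 11 loop partners, THRA, PRDM16, genes past the threshold and the extremes of each other list, and the 5 genes most correlated with NR1D1, and 1 listed gene is not reported here. Promoter windows came from the RefSeq table for GRCh38.p14. Alternatives were DESeq2 1.42.0, RLE or upper-quartile normalization, no filter, at least 10 counts in every library, a replicate block and each library left out.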

Additional observations from a re-analysis of the deposited data

How the results depend on the processing

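NR1D1 was past the threshold in 8 of 12 alternatives, with a log2 fold change between -1.53 and -1.21 when a library was left out (adjusted p = 0.0605 without IR+NC-LV replicate 1, and 0.0602, 0.0559 and 0.121 without IR+PR-LV replicates 1, 2 and 3). With DESeq2, 168 genes were past the threshold, among them 3 clock genes (NR1D1, NR1D2 and PER1) and 4 partners (BHLHE41, NFIL3, HLF and CIART). Without the filter on low counts there were 342, among them 5 clock genes (those 3, DBP and TEF), the same 4 partners and 3 output genes. Leaving out a library gave 1 to 28 genes, 0 to 2 clock genes and 0 to 1 partners, and medians between -0.0021 and 0.0281 for the turnover list, between -0.0289 and 0.0564 for the corepressor list, between -0.0575 and 0.0112 for genes repressed by REV-ERB, between -0.0703 and -0.0120 for output genes and between -0.0497 and -0.0066 for glucocorticoid-responsive genes. CLOCK lay between -0.0256 and 0.0639. RORA turned to -0.00704 with upper-quartile normalization and lay between -0.124 and 0.134 with a library left out. Beyond fewer genes or samples, the cause was not tested. The deviations of same-numbered libraries had an r between -0.0088 and 0.07, and those of differently numbered libraries between -0.097 and 0.062. With so few libraries these values cannot decide whether the numbers pair libraries, and the labels do not say. A replicate block gave 3 genes, with NR1D1 at -1.36 the only clock gene. Among the clock genes, DBP and PER2 had the fewest counts, and the partners NPAS2 and RORB had too few to be tested. The part of depth in these results was not tested.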
